A study of Mus musculus with 10 samples.

Results

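The mRNAs of 10 genes were followed in mouse tumor cells: 7 ligands of the C1q/TNF-related family (C1qtnf1 to C1qtnf7), the adiponectin receptors Adipor1 and Adipor2, and the leptin receptor Lepr. They are 10 of the 53379 genes in the count table, chosen by symbol as C1qtnf3, some of its paralogs and the receptors of the fat-cell hormones adiponectin and leptin. C1qtnf3 was picked with its difference between diets known, so that difference is given as a description. MC38 is a mouse colon carcinoma line. All 10 libraries came from MC38 cells grown in C57BL/6J mice, sorted 21 days after implantation as dTomato-positive and CD45-negative, dTomato being a fluorescent marker protein and CD45 the common leukocyte surface protein. There was 1 library per mouse, from 5 mice fed a control diet and 5 fed a high-fat diet, and the comparison between them asks how the tumor cells of the differently fed hosts differ. The model is 1 transplanted line, and neither what the diets contained, nor how long they were fed, nor whether hosts were male or female is given in the sources used here.

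C1q/TNF-related proteins are secreted proteins built like adiponectin, with a collagen-like stretch followed by a globular C1q domain, and they assemble into trimers through these parts. Several are made by fat tissue and act on glucose and lipid metabolism or inflammation. The adiponectin receptors are multi-pass membrane proteins of the progestin and adipoQ receptor (PAQR) family, linked to AMP-activated kinase and to ceramide breakdown. The leptin receptor is a cytokine receptor that signals through the kinase JAK2 and the transcription factor STAT3. In obesity, leptin in the blood typically rises and adiponectin falls.

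The collagen-like part can be read in the coding sequence as a run of codon triplets that each begin with a glycine codon, GGN. The 3 of the 7 ligands with appreciable mRNA are shown for that stretch, 5′ to 3′. The sequences are from the GENCODE M21 transcripts of GRCm38, with the GG of each leading glycine codon in capitals.
C1qtnf3: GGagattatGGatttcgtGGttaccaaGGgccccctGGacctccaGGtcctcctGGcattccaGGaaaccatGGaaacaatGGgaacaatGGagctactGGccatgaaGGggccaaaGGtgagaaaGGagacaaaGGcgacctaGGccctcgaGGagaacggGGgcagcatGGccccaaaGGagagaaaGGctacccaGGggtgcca
C1qtnf1: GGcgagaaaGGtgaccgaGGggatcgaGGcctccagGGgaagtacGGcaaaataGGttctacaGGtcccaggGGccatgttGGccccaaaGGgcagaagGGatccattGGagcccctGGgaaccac
C1qtnf6: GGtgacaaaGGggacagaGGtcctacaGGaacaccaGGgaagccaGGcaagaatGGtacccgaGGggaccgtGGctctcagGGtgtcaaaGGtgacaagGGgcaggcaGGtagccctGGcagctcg
C1qtnf3 carried 23 such triplets in a row, in coding bases 352 to 558 of 960, against 14 in C1qtnf1 and 14 in C1qtnf6. Among the other ligands the run was 34 triplets in C1qtnf2, 34 in C1qtnf7 and 23 in C1qtnf5. C1qtnf4, which is known to hold repeated C1q domains without the collagen part, had a longest run of 2.

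C1qtnf1 and C1qtnf6 were the closest of all 21 ligand pairs over the last 420 coding bases, where the C1q domain lies, with 74.3% identical bases. C1qtnf3 stood at 54.9% to 60.7% to the others, its nearest being C1qtnf7, and the median of the pairs was 58.3%. The coding sequences of Adipor1 and Adipor2 were 69.6% identical. No window of 50 bases of C1qtnf1, C1qtnf3, C1qtnf6, Adipor1 or Adipor2 occurred exactly in the transcript of another gene.

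Libraries held between 16513388 and 18653705 counts, and those of high-fat mice were on average smaller. A count of 0 allows up to 3 counts in a library, which is 0.161 to 0.182 CPM, the count scaled to a common library size; this covers counting error only. Of the 10 genes, 5 had enough counts to test. The labelled identity was checked on listed markers. The 10 epithelial genes summed to 2.39 to 6.82 CPM in control and 2.16 to 4.82 CPM in high-fat libraries, and Epcam had 16 counts in all 10 libraries together. The 15 listed fibroblast genes were mixed. Col3a1 stood at 7992 ± 2050 CPM in control and 7603 ± 1994 CPM in high-fat mice (SD, n = 5 each). Fap, named after its values were seen, ranged from 0.583 to 1.71 CPM in control and from 0.525 to 3.29 CPM in high-fat mice. Acta2, Thy1, Mfap5 and Pi16 were also under 5 CPM on average in both groups, and C7 had 3 counts in all. The other listed fibroblast genes, Col6a3, Dcn, Pdgfra, Col1a1, Postn, Dpt, Lum and Col1a2, were over 5 CPM on average in both groups. Col6a3 stood at 1355 ± 216 CPM in control and 1368 ± 171 CPM in high-fat mice, and Dcn at 967 ± 207 and 1036 ± 239 CPM (SD, n = 5 each). The cells are therefore called sorted tumor cells by their sort, not by an epithelial profile. Markers of macrophages and leukocytes were higher in control mice 3 and 4 than in the other 8 mice.

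C1qtnf3 encodes CTRP3, a secreted protein known as a cartilage growth factor and an adipokine that lowers glucose output by the liver. In the sorted tumor cells its mRNA was low on the control diet and several times higher on the high-fat diet. Control mice 1 to 5 had 2.73, 3.45, 5.71, 4.07 and 5.47 CPM, from 46 to 98 counts each. High-fat mice 1 to 5 had 8.81, 22.8, 25.0, 10.3 and 12.7 CPM, from 148 to 410 counts each. The groups did not overlap, and high-fat mice 2 and 3 stood well above the other high-fat mice.

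The group means of C1qtnf3 were 4.29 ± 1.28 CPM (SD, n = 5) on the control diet and 15.9 ± 7.46 CPM (SD, n = 5) on the high-fat diet, a ratio of 3.71. The fitted log2 change, high-fat minus control, was 1.89 (SE 0.32), larger in size than that of 99.5% of the 14337 genes tested. Even so, C1qtnf3 missed the threshold of 0.05 when edgeR p-values were adjusted over all genes (adjusted p = 0.0973). It passed in 5 of 18 alternatives, among them DESeq2 (adjusted p = 1.02e-06). In edgeR it passed when high-fat mouse 1, the lowest high-fat mouse, was left out (adjusted p = 0.0410). It also passed in edgeR without control mice 3 and 4 (adjusted p = 0.0271), mouse 3 being the highest control mouse. It missed the threshold with limma-voom (adjusted p = 0.128), and the adjusted p over all 18 alternatives ran from 1.02e-06 to 0.819. In bulk RNA, more cells with the transcript and more transcript per cell cannot be told apart.

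**Figure D1:**
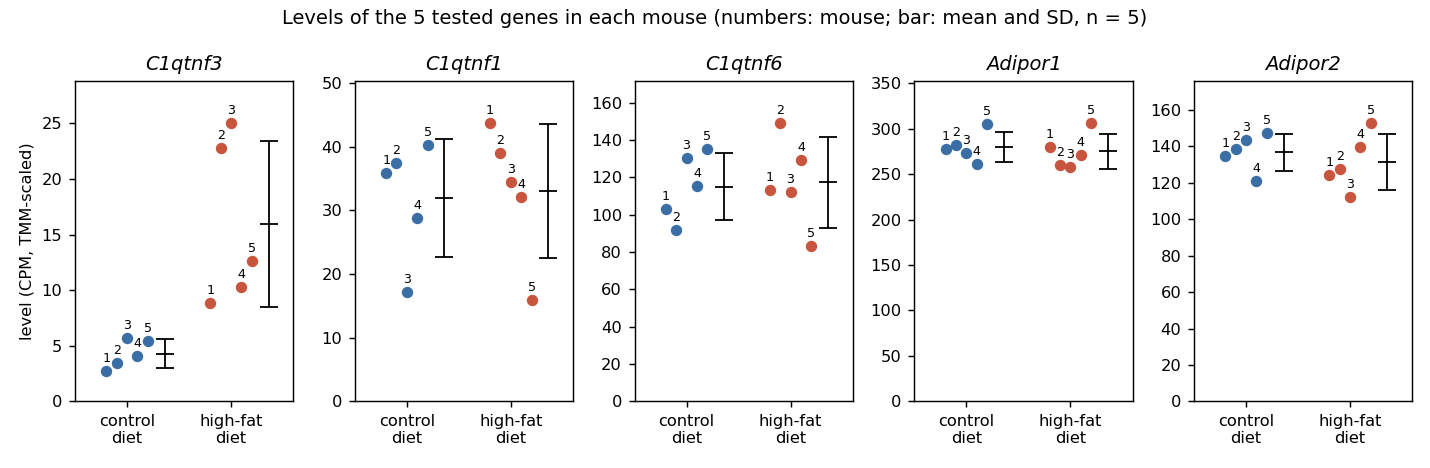
Level of each of the 5 tested genes in CPM (vertical axes, each starting at 0) in control-diet mice (blue) and high-fat-diet mice (red); points are single mice with their number, and the black bars give the mean and SD of 5 mice. C1qtnf3 separates the diets, with controls up to 5.71 CPM and high-fat mice from 8.81 CPM, while the groups overlap for the other 4 genes.

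C1qtnf3 lies on the plus strand of chromosome 15 (GRCm38, 10952332 to 10980150, ENSMUSG00000058914.12), and no other annotated gene overlaps it. Its next gene downstream on the same strand, Amacr, which encodes a racemase of branched-chain fatty acid and bile acid metabolism, begins after a gap of 1605 bases. Amacr was named for its position after its values were seen. It stood at 24.3 ± 1.81 CPM in control and 31.5 ± 2.38 CPM in high-fat mice (SD, n = 5 each), and its groups did not overlap either. Its log2 change was 0.37 (SE 0.08) with an edgeR adjusted p of 0.124, against 1.89 for C1qtnf3. Per kilobase of exon, C1qtnf3 was 0.178 ± 0.042 times Amacr in control and 0.510 ± 0.223 times in high-fat mice (SD, n = 5 each).

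Markers of other cells also differed between the groups, though 0 of them passed the adjusted edgeR test. The 12 macrophage genes summed to 139 to 482 CPM in control and 123 to 167 CPM in high-fat libraries, and 10 of their 11 tested members had an unadjusted edgeR p under 0.05 as lower, where 6.62% of all genes tested did. Mertk, the other one, was higher at that level. The 10 leukocyte genes summed to 20.1 to 205 and 16.3 to 56.8 CPM, all 10 with negative changes. Of these, 4 had an unadjusted edgeR p under 0.05, against the same 6.62% of all genes tested. Both lists were highest in control mice 3 and 4, and without those mice the log2 change of C1qtnf3 was 2.03. Control mouse 3 was also the control mouse with the most C1qtnf3. The part of macrophage and leukocyte RNA in the difference of C1qtnf3 was not tested.

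The 12 adipocyte genes summed to 7.53 to 20.4 CPM in control and 3.44 to 9.59 CPM in high-fat libraries, nearly all of it Fabp4. The defining adipocyte genes were at or near 0 over all 10 libraries, with 3 counts of Adipoq, 1 of Lep, 1 of Plin1, 5 of Cfd and 0 of Retn. The 15 fibroblast genes summed to 8636 to 13170 CPM in control and 7467 to 13810 CPM in high-fat libraries, with a median log2 change of -0.00 over the 14 tested. Of these 14, 2 had an unadjusted edgeR p under 0.05, both higher, where 5.45% of all genes tested were: Pi16, with a log2 change of 0.88 (SE 0.32), and Col1a2, with 0.76 (SE 0.28), both named after their values were seen. The 10 endothelial and pericyte genes summed to 114 to 149 and 142 to 210 CPM, highest in high-fat mouse 3, and most of that sum was Cspg4. All 3 tested members had positive changes, the direction of C1qtnf3, where 51.4% of all genes tested did. Of the 3, 2 were higher at an unadjusted edgeR p under 0.05, where 5.45% of all genes tested were. They were Cdh5, with a log2 change of 0.95 (SE 0.38), and Cspg4, with 0.30 (SE 0.11). Tek, too low to test and named after its values were seen, ranged from 0 to 0.119 CPM in control and from 0.239 to 0.855 CPM in high-fat mice, with no overlap. Among the genes tested, 1.08% had every high-fat mouse above every control mouse. The part of the adipocyte, fibroblast, endothelial and pericyte genes in the difference of C1qtnf3 was not tested.

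The 250 bases before the annotated start of C1qtnf3 are shown beside those of C1qtnf6 and Adipor1, the most abundant ligand and receptor, to set the gene whose diet groups lay apart beside 2 genes whose groups overlapped. The sequences are from RefSeq on GRCm38.p6, on the gene's strand, with motif matches in capitals; RefSeq promoters were matched for 8 of the 10 genes.
C1qtnf3, chr15:10952082-10952331, plus strand: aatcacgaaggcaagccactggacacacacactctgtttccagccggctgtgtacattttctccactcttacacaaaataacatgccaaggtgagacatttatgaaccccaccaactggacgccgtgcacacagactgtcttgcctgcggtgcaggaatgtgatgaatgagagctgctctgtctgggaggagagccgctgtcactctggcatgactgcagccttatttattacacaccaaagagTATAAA
C1qtnf6, chr15:78529652-78529901, minus strand: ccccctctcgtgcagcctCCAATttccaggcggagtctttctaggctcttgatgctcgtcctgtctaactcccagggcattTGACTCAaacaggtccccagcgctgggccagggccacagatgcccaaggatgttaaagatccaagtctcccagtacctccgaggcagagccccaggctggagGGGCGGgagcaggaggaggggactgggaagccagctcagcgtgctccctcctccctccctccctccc
Adipor1, chr1:134415128-134415377, plus strand: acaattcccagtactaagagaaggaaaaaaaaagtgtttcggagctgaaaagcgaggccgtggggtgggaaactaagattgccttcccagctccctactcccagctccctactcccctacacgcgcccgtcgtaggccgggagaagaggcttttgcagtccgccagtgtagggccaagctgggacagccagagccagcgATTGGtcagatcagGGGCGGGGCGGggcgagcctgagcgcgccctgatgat
The motifs searched on both strands were the TATA box core TATAAA, the CCAAT box CCAAT, the GC box GGGCGG, the E-box CACGTG, the AP-1 site TGACTCA and a STAT core TTCNNNGAA. They occur in 12.4%, 33.8%, 32.7%, 6.02%, 4.46% and 7.02% of the 32851 RefSeq windows of this length, in that order.

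The C1qtnf3 window held 1 match, TATAAA in the last 6 bases before the annotated start. It had 49.2% G and C and 6 CpG dinucleotides, near the medians of all windows, which were 52.4% and 6. The C1qtnf6 window held a CCAAT box, an AP-1 site and a GC box, and 7 CpG. Adipor1 had a CCAAT box on the minus strand and a pair of overlapping GC boxes, with 15 CpG, and the window of its second annotated start had 33 CpG. The C1qtnf6 window lies in an intron of a longer GENCODE transcript of that gene. Adipor2, whose window held no match and lies inside the span of its GENCODE gene, had 27 CpG. A match is a description of the letters and says nothing of what binds there.

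C1qtnf1 encodes CTRP1, a secreted paralog made by fat and vascular cells. It showed no difference between diets that passed the test (edgeR adjusted p = 0.962). Control mice 1 to 5 had 35.8, 37.5, 17.2, 28.9 and 40.3 CPM, and high-fat mice 1 to 5 had 43.8, 39.0, 34.5, 32.1 and 15.9 CPM. Control mouse 3 and high-fat mouse 5 were the lowest of their groups, and the groups overlapped. The means were 31.9 ± 9.25 and 33.0 ± 10.6 CPM (SD, n = 5 each), with a log2 change of 0.05 (SE 0.27, 95% interval -0.48 to 0.58). The gene lies on chromosome 11 (118428203 to 118449963), and 20.5% of its exon bases overlap the antisense gene Gm11747, which had 5 counts in all libraries against 5628 for C1qtnf1.

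C1qtnf6 encodes CTRP6, known as an inhibitor of the alternative complement pathway, and was the most abundant ligand, with no difference between diets that passed the test (edgeR adjusted p = 0.960). Control mice 1 to 5 had 103, 91.7, 130, 116 and 135 CPM, and high-fat mice 1 to 5 had 113, 149, 112, 130 and 83.2 CPM. The highest and the lowest of all 10 values both belonged to high-fat mice. The means were 115 ± 18.1 and 117 ± 24.4 CPM (SD, n = 5 each), with a log2 change of 0.03 (SE 0.15, 95% interval -0.26 to 0.32). C1qtnf6 (chromosome 15, 78523346 to 78531416, minus strand) carries an older version number in the count table than in GENCODE M21, so its annotated length may differ from the one counted.

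The remaining ligands of the 7 followed here were at or near 0. C1qtnf4 and C1qtnf5 had 0 counts in every library, C1qtnf2 had 5 counts over all 10, at most 3 in a library, and C1qtnf7 had 5, at most 2 in a library. The value of C1qtnf5 cannot be read as absence, because 100% of its exon bases also belong to Mfrp on the same strand, and 96.4% of its 50-base windows occur in that gene's transcripts. Whether reads that fit more than 1 gene were dropped is not given in the sources used here. Mfrp itself had 9 counts.

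Adipor1, the adiponectin receptor best known for activating AMP-activated kinase, was the most abundant of the 10 genes, and its difference between diets did not pass the test (edgeR adjusted p = 0.929). Control mice 1 to 5 had 277, 282, 273, 261 and 305 CPM, and high-fat mice 1 to 5 had 279, 260, 258, 271 and 306 CPM. All 10 libraries lay within 1.19-fold of each other. The means were 279 ± 16.2 and 275 ± 19.7 CPM (SD, n = 5 each), and the log2 change was -0.02 (SE 0.07, 95% interval -0.16 to 0.11). Adipor1 lies on chromosome 1 (134415378 to 134433351).

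Adipor2, the paralog best known for its link to PPAR-alpha, had a narrow range across mice, and its difference did not pass either (edgeR adjusted p = 0.847). Control mice 1 to 5 had 135, 139, 143, 121 and 147 CPM, and high-fat mice 1 to 5 had 125, 127, 112, 140 and 153 CPM. The groups overlapped over most of their range. The means were 137 ± 10.2 and 131 ± 15.5 CPM (SD, n = 5 each), with a log2 change of -0.06 (SE 0.09, 95% interval -0.23 to 0.11). Adipor2 lies on chromosome 6 (119353150 to 119417704, minus strand). Per kilobase, Adipor1 exceeded Adipor2 in all 10 libraries, by 2.43 ± 0.109 times in control and 2.50 ± 0.184 times in high-fat mice (SD, n = 5 each).

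Lepr, the leptin receptor, was barely detected. Control mice 1 to 5 had 3, 3, 5, 3 and 3 counts, and high-fat mice 1 to 5 had 1, 3, 13, 4 and 3 counts, which is 0.0596 to 0.794 CPM over all libraries. High-fat mouse 3 stood apart from the rest. With 41 counts in all, Lepr fell under the expression filter and was not tested. Its neighbour Leprot, whose protein limits leptin receptor at the cell surface and which starts upstream on the same strand, was at 80.8 ± 7.63 CPM in control and 87.1 ± 7.22 CPM in high-fat mice (SD, n = 5 each).

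On the scale of CPM per kilobase of exon, which allows levels of different genes to be compared, the order was Adipor1 at 55.1 ± 3.42, C1qtnf6 at 43.1 ± 7.52, Adipor2 at 22.4 ± 2.12, C1qtnf1 at 10.4 ± 3.00 and C1qtnf3 at 3.95 ± 3.10 (SD, n = 10). Lepr followed at 0.0341, C1qtnf2 at 0.0211 and C1qtnf7 at 0.00685. With the union of exons as length, the ranges of Adipor1 and C1qtnf6 overlapped, with Adipor1 higher in 9 of 10 libraries. With that length C1qtnf6 lay above Adipor2, and Adipor2 above C1qtnf1, in all 10 libraries with no overlap. The overlap of C1qtnf6 with Adipor1 and with Adipor2 depends on the length used. C1qtnf1 exceeded C1qtnf3 within each of the 10 libraries, but their ranges overlapped: the ratio was 6.78 ± 3.17 in control and 2.03 ± 1.28 in high-fat mice (SD, n = 5 each).

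**Figure D2:**
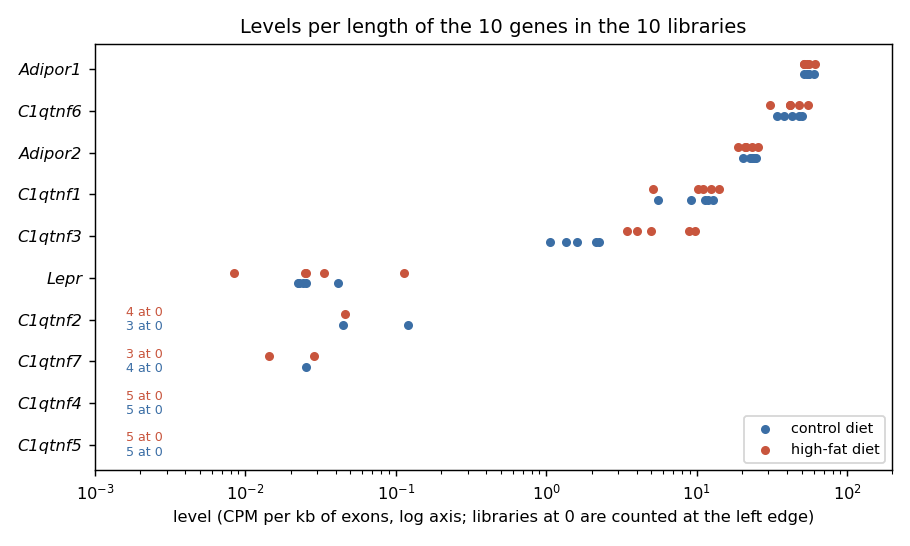
Level per length of the 10 genes (horizontal log axis, CPM per kilobase of exon) in every library, control diet in blue and high-fat diet in red, ordered by the mean; libraries at 0 are given as a number at the left. The 5 tested genes lie above 1 CPM per kilobase in every library, and Lepr and the other 4 ligands lie near or at 0.

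Within a diet, variation between mice differed among the genes. The coefficient of variation over 5 mice was 5.79% and 7.17% for Adipor1 and 7.43% and 11.8% for Adipor2 in control and high-fat mice, against 15.7% and 20.8% for C1qtnf6, 29.0% and 32.0% for C1qtnf1, and 30.0% and 46.9% for C1qtnf3. The deviations of Adipor1 and Adipor2 from their diet means ran together (Pearson r = 0.805 over 10 libraries). Those of C1qtnf3 had r = 0.465 with C1qtnf6, -0.116 with C1qtnf1, -0.301 with Adipor1 and -0.234 with Adipor2. These values share library depth and composition and are descriptions.

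By the same measure, over 10 libraries and among genes with a mean of at least 5 CPM, the genes most like C1qtnf3 were Tctn3 (r = 0.932), Araf (0.921), BC017158 (0.916), Gm10524 (0.913) and Klc2 (0.911). The measure leaves out the difference between diets, and the log2 change of these 5 was at most 0.24, that of Gm10524. Closest to C1qtnf1 were Terf2, Gtf2i and Mmp9 (r = 0.961, 0.943 and 0.939), and closest to C1qtnf6 were Acbd3, Lipa and Wls (0.978, 0.977 and 0.973). Adipor1 was most like Psmd8, Lgals1 and Nsmce2 (0.974, 0.961 and 0.960), and Adipor2 most like Bag5, Hilpda and Mbtps2 (0.957, 0.946 and 0.941). The highest of 10833 genes compared over 10 libraries, these values are descriptions.

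In all, 5 of the 10 genes passed the filter on low counts. In edgeR 0 of the 5 passed the threshold, where 0.0628% of all genes tested did, 0.0418% as higher and 0.0209% as lower on the high-fat diet. C1qtnf3 alone had an unadjusted p under 0.05, where 12.1% of all genes did, 5.45% as higher. Its groups alone did not overlap, as for 2.18% of all genes, 1.08% with every high-fat mouse higher. The change was positive for 3 of the 5, against 51.4% of all genes. DESeq2 called 1 of the 5, C1qtnf3 as higher, against 2.2% of all genes, 0.739% as higher. With limma-voom 0 of the 5 were called, against 0.0349% of all genes, 0.0209% as higher, and with sample weights 1 was, C1qtnf3, against 5.16%, 2.41% as higher. C1qtnf3 was also the 1 called by edgeR when control mice 3 and 4 were left out, against 1.89% of all genes, 0.823% as higher, and when high-fat mouse 1 was left out, against 0.145%, 0.0896% as higher. As the choice of C1qtnf3 used this contrast, nothing is read from these counts. The median log2 change of the 5 was 0.03, beside 0.01 over all genes tested.

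**Figure D3:**
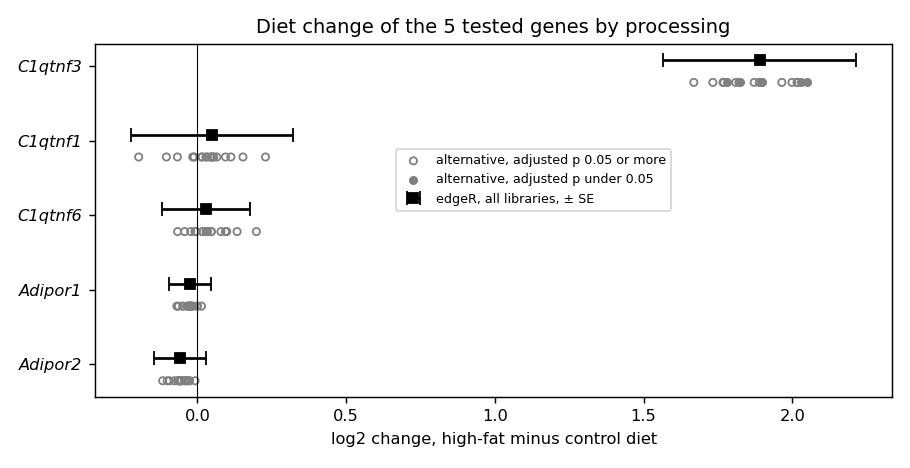
Log2 change between diets (horizontal axis, high-fat minus control) of the 5 tested genes; black squares give the edgeR fit of all libraries with its SE, and grey circles the alternatives, filled where the adjusted p was under 0.05. All values of C1qtnf3 lie between 1.67 and 2.05, and those of the other 4 genes lie around 0.

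Other genes of these families were counted from lists. Of 23 further genes with a C1q domain, 10 were tested and 0 passed in edgeR in either direction, and 4 had an unadjusted p under 0.05, all lower on the high-fat diet, against 6.62% of all genes lower at that level. They were C1qa, C1qb and C1qc, the chains of complement C1q and standard macrophage genes, and Emilin2, a matrix glycoprotein gene named after its values were seen. C1qb stood at 36.5 ± 29.5 CPM in control and 6.79 ± 2.64 CPM in high-fat mice (SD, n = 5 each), a log2 change of -2.43 (SE 0.59). C1qa, C1qb and C1qc are also on the macrophage list described above, whose sum was highest in control mice 3 and 4. The part of macrophage RNA in these values was not tested. Col8a1, a short-chain collagen gene and the most abundant of the group per kilobase, stood at 187 ± 35.9 and 177 ± 26.1 CPM. C1qtnf12, a C1q/TNF paralog outside the 7 ligands and named after its values were seen, stood at 25.0 ± 3.99 and 28.2 ± 1.34 CPM. Per kilobase its mean was 19.5 CPM, above C1qtnf1 and C1qtnf3. Adipoq, which encodes adiponectin itself, had 3 counts in all.

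Of 9 further PAQR genes 5 were tested, 0 passed in edgeR, and 2 had an unadjusted p under 0.05, both lower, where 6.62% of all genes were. Paqr3, a Golgi protein gene known as a brake on Raf kinase, stood at 12.4 ± 3.33 CPM in control and 7.75 ± 1.19 CPM in high-fat mice, with no overlap, a log2 change of -0.67 (SE 0.18) and an edgeR adjusted p of 0.183. Paqr7, a progestin receptor gene, stood at 2.28 ± 0.742 and 1.11 ± 0.772 CPM. Mmd and Paqr4, the most abundant per kilobase, had log2 changes of -0.18 (SE 0.10) and 0.05 (SE 0.11). The median log2 change of the 5 was -0.29.

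Downstream of the adiponectin receptors, 13 of 17 listed genes were tested, 0 passed in edgeR and 1 had an unadjusted p under 0.05, as 12.1% of all genes did. The 1 of 13 is no larger a share than that. The gene was Prkaa2, a catalytic subunit of AMP-activated kinase, at 11.3 ± 3.83 CPM in control and 7.73 ± 1.14 CPM in high-fat mice. The other catalytic subunit, Prkaa1, was at 159 ± 9.58 and 161 ± 10.8 CPM, and its upstream kinase Stk11 at 152 ± 5.26 and 154 ± 1.52 CPM. Rack1, a scaffold protein gene reported to bind the receptor and the most abundant of the list, had a log2 change of -0.17 (SE 0.14), and the insulin receptor gene Insr one of -0.20 (SE 0.11). The adiponectin-binding cadherin Cdh13 had 49 counts in all. The median over the 13 was -0.03.

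Of 16 leptin pathway genes 15 were tested and 0 passed in edgeR, and 3 had an unadjusted p under 0.05, all lower, where 6.62% of all genes were. Irs2, an adaptor of insulin and leptin signalling, stood at 32.5 ± 2.12 CPM in control and 23.9 ± 4.78 CPM in high-fat mice, with an edgeR adjusted p of 0.185. Leprotl1, a paralog of Leprot, stood at 105 ± 17.7 and 78.2 ± 8.22 CPM. Socs3, the feedback inhibitor induced by STAT3, stood at 331 ± 49.8 and 265 ± 32.7 CPM, a log2 change of -0.32 (SE 0.11) with an edgeR adjusted p of 0.276. The phosphatase gene Ptpn11 had a log2 change of -0.10 (SE 0.07), and the median over the 15 was -0.00. Leptin itself had 1 count in all.

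Among 18 other adipokine genes 16 were in the table and 6 were tested, and 0 passed in edgeR, with 2 at an unadjusted p under 0.05, both lower, where 6.62% of all genes were. Apln, which encodes the peptide hormone apelin, stood at 21.9 ± 2.56 CPM in control and 14.8 ± 3.13 CPM in high-fat mice, with no overlap and an edgeR adjusted p of 0.172. Angptl4, an inhibitor of lipoprotein lipase, ranged from 65.7 to 137 CPM in control and from 42.6 to 87.7 CPM in high-fat mice. The NAD synthesis enzyme gene Nampt had a log2 change of -0.04 (SE 0.10). Resistin (Retn) was at 0.

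**Figure D4:**
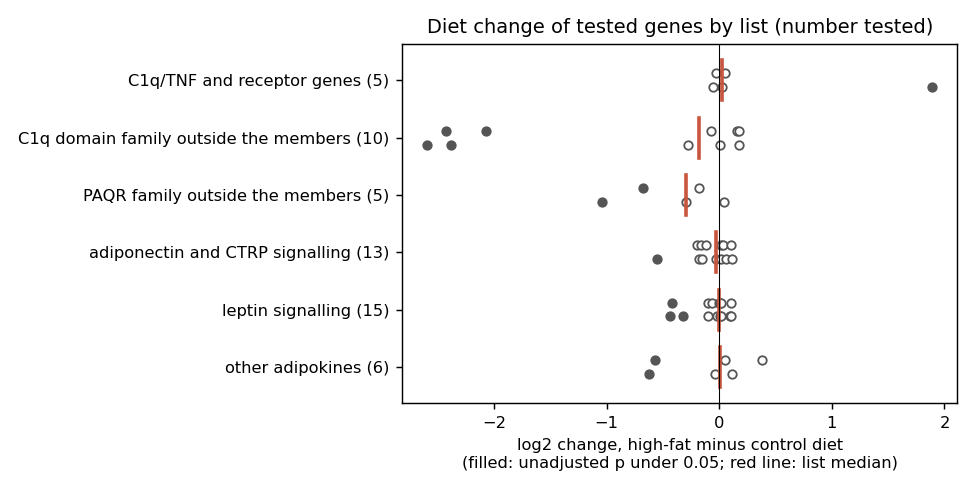
Log2 change between diets (horizontal axis, high-fat minus control) of each tested gene in the 6 groups of genes named at the left, with the number tested in brackets; filled points had an unadjusted edgeR p under 0.05 and red lines mark the median of each group. C1qtnf3 at 1.89 is the filled point on the right, and the filled points of the other lists lie to the left of 0.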

How the data were processed

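RNeasy extraction preceded NEBNext Ultra libraries of polyadenylated RNA, per the labels' protocols. The authors deposited raw read counts per gene, with 1 column per mouse and none without a sample. Of tools, the submitters' processing notes list BWA 0.7.12, cutadapt 1.15, DESeq2 1.24.0 and FastQC 0.11.5, and of builds mm10 and GRCm38, without saying what each was used for. Which program counted reads, on which annotation release, with which strand setting and with what treatment of shared reads is not given in the sources used here. Without strand, reads of a gene and its antisense partner cannot be told apart. Of 53379 identifiers, 53274 matched GENCODE M21 with the version ignored.

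Diets were compared across all 14337 genes that passed filterByExpr (99.9% of counts) with edgeR 4.0.16 in R 4.3.3: TMM scaling, robust quasi-likelihood fits, a two-sided test and Benjamini-Hochberg adjustment at 0.05. The SE is the absolute log2 change over the root of F, and 95% intervals are 1.96 SE. This multiplier is for a normal distribution, so the intervals are somewhat narrower than the F test would give. CPM are TMM-scaled; per-kilobase levels use the union of exons. Likeness used log2 CPM (prior count 2) less the diet mean. Alternatives used DESeq2 1.42.0, limma 3.58.1, other scalings, filters, covariates and left-out mice. Every pair of libraries differed by more than sampling noise (lowest chi-square per degree of freedom 7.67). All 10 genes were named, and in each pathway list the 3 most abundant per kilobase and the 2 with the smallest p. In the adipocyte, fibroblast, macrophage and endothelial lists the most abundant gene was named. No leukocyte gene was named, and in the epithelial list Epcam was named outside this rule. A gene that this rule names is not reported here. The genes and lists were chosen with earlier results of these data known.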

Additional observations from a re-analysis of the deposited data

Results flagged for a closer look

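Single libraries stood far from the rest of their group, by the gap to the nearest mouse as a share of the group's range, for 3 of the scarcely detected genes. Lepr was at 0.794 CPM in high-fat mouse 3, from 13 counts, the next high-fat mouse being at 0.237 CPM. Control mouse 3 had 0.292 CPM of Lepr, from 5 counts, against 0.178 CPM in the next control mouse. C1qtnf7 was at 0.106 CPM in control mouse 2, from 2 counts, with the other control mice at 0, and C1qtnf2 at 0.0598 CPM in high-fat mouse 2, from 1 count, with the other high-fat mice at 0. In C1qtnf7 and C1qtnf2 the other 4 libraries of the group were at 0, so that any count in a single library marks it. For continuous values chance marks about 1 group in 20, a rate that does not hold for counts this low. No library of C1qtnf1, C1qtnf3, C1qtnf6, Adipor1 or Adipor2 stood apart by this measure.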

How the results depend on the processing

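The log2 change of C1qtnf3 was positive in all 18 alternatives, from 1.67 to 2.05, and that of Adipor2 negative in all 18. C1qtnf3 passed the threshold in 5: the replicate block, DESeq2, limma-voom with sample weights (1.78, adjusted p = 0.0299, chosen after seeing the data), and leaving out high-fat mouse 1 or control mice 3 and 4 together. With library size as a covariate its log2 change was 1.77 (edgeR adjusted p = 0.819), and limma-voom without weights gave 1.81 (adjusted p = 0.128). The sign turned for C1qtnf1 with library size as a covariate (-0.016) and without control mice 3 and 4 (-0.20), and for C1qtnf6 with library size (-0.023). With single mice left out the log2 change of C1qtnf1 ran from -0.10 to 0.23, of C1qtnf6 from -0.067 to 0.13 and of Adipor1 from -0.064 to 0.013, none past the threshold. Over all genes 9 passed in edgeR; the number was 53 without the filter, 0 with library size as a covariate (817 at an unadjusted p under 0.05), 316 with DESeq2, 5 with limma-voom, 740 with its sample weights, 276 without control mice 3 and 4, and 1 to 27 with single mice left out. With the mouse number as a replicate block it was 16, and C1qtnf3 changed by 1.82 (edgeR adjusted p = 0.0249). Deviations of same-numbered mice correlated between -0.36 and 0.333, with 3 of 5 pairs over 0.1 and 0 of 5 pairs best with their own number. With 5 pairs these values cannot decide whether the numbers pair the mice. The column labels of the counts number the high-fat mice onward from the control mice. The shared numbers therefore come from the sample titles only, and the labels give no ground for the replicate block. With the longest transcript as length, Adipor1 was at 80.4, C1qtnf6 at 48.4 and Adipor2 at 32.1 CPM per kilobase. The overlap of the range of C1qtnf6 with those of the 2 receptors changes with this length. Depth limits Lepr, C1qtnf2 and C1qtnf7, where differences between diets were not detectable.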
